A study of Mus musculus with 3 samples.

Results

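Membrane carriers for sugars, amino acids, monocarboxylates, carnitine, sulphate and organic ions were examined in sorted cells of the mouse leptomeninges, the pia and arachnoid that wrap the brain. The members were all genes of the deposited count table whose symbols belong to the Slc2, Slc6, Slc7, Slc13, Slc16, Slc22, Slc47 or Slco families, with symbols ending in -ps left out. This rule matched 111 of 46983 gene rows, and no measured value entered it. Of the 111 rows, 4 are not carriers by annotation or name: the opposite-strand genes Slc6a19os, Slc7a6os and Slc13a2os, and Slco6b1, which GENCODE M21 lists as a pseudogene. RNA came from the pia-enriched fraction of leptomeninges of vehicle-treated mice, which was microdissected, dissociated, sorted by flow cytometry, amplified from low input and sequenced as paired reads. The 3 libraries, numbered 1 to 3 as in the labels, form 1 group, so no treatment was compared. Nothing in the labels states what the vehicle was given for, the strain, sex or age of the mice, or whether a library came from 1 mouse or several. The spread between libraries may therefore be technical in part.

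Solute carriers move small molecules across membranes that are otherwise closed to them, some by exchange, some by coupling to sodium or protons and some by facilitated diffusion. At the borders of the brain they supply glucose, lactate and amino acids and clear organic ions and signalling molecules. The best described sites are the endothelium of brain capillaries and the epithelium of the choroid plexus. Cells of the meninges, which line the subarachnoid space, are also known to express carriers of several of these families.

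Libraries 1, 2 and 3 held 21002860, 28704952 and 25338616 gene counts. Counts were scaled to CPM, the counts of a gene in each 1000000 of the library, with TMM library sizes, and levels of different genes were compared only after division by exon length, as CPM per kilobase (kb). A gene with 0 counts could have had up to 3, equal to 0.152, 0.101 and 0.116 CPM in libraries 1, 2 and 3. The sums of 5 fibroblast markers (Col1a1, Col1a2, Dcn, Lum and Pdgfra) were 21313, 24784 and 21385 CPM in libraries 1, 2 and 3. Leptomeningeal fibroblast markers, also 5 with none at 0, summed to 805, 447 and 677 CPM, most of it Ptgds (647, 239 and 518 CPM). Aldh1a2 (63.5, 67.1 and 65.1 CPM), Zic1 (52.1, 71.2 and 50.4 CPM) and Foxc1 (22.3, 51.4 and 30.0 CPM) were instead highest in library 2. Igfbp2, like Ptgds, was highest in library 1. Sums of 5 arachnoid barrier markers were 93.3, 85.9 and 89.1 CPM, and those of 5 blood endothelial markers were 79.4, 60.3 and 67.6 CPM, with Cldn5 at 2.19 ± 1.02 CPM (SD, n = 3). Mural markers summed to 2738 to 4863 CPM, oligodendrocyte and Schwann cell markers to 2618 to 4389.7 CPM, astrocyte markers to 213 to 367 CPM, neuronal markers to 72.2 to 87.4 CPM and erythroid markers to 196 to 793 CPM. Library 1 stood apart from the others. The sum of 5 choroid plexus epithelial markers was 93.1 CPM in library 1 against 3190.2 and 4873 CPM in libraries 2 and 3. For 5 macrophage and microglial markers it was 6.52 CPM against 154 and 452 CPM. The ratio of library 1 to the others also followed base composition, with a Spearman coefficient of 0.607 against GC content over 14375 genes and of 0.584 over the carriers past the filter described next. Both are descriptions, since the genes share the same libraries.

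Of the 111 members, 63 passed the filter on low counts (about 10 counts or more in each library), 24 had counts but did not pass, and 24 had no count in any library. The share past the filter was 56.8%, against 30.7% of all gene rows and 60.4% of rows annotated as protein coding. At least 1 count was found for 87 members (78.4%), against 53.4% of all gene rows. All members together took 0.373% ± 0.0326 of gene counts (SD, n = 3), and 9 of them exceeded a mean of 100 CPM. The Slc16 and Slc47 families differed in how this was made up: 12 of 14 Slc16 members passed the filter, whereas the share of the Slc47 family came almost entirely from 1 gene. The Slc22 family was the largest, with 25 members, of which 9 passed and 9 had no count.

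**Figure D1:**
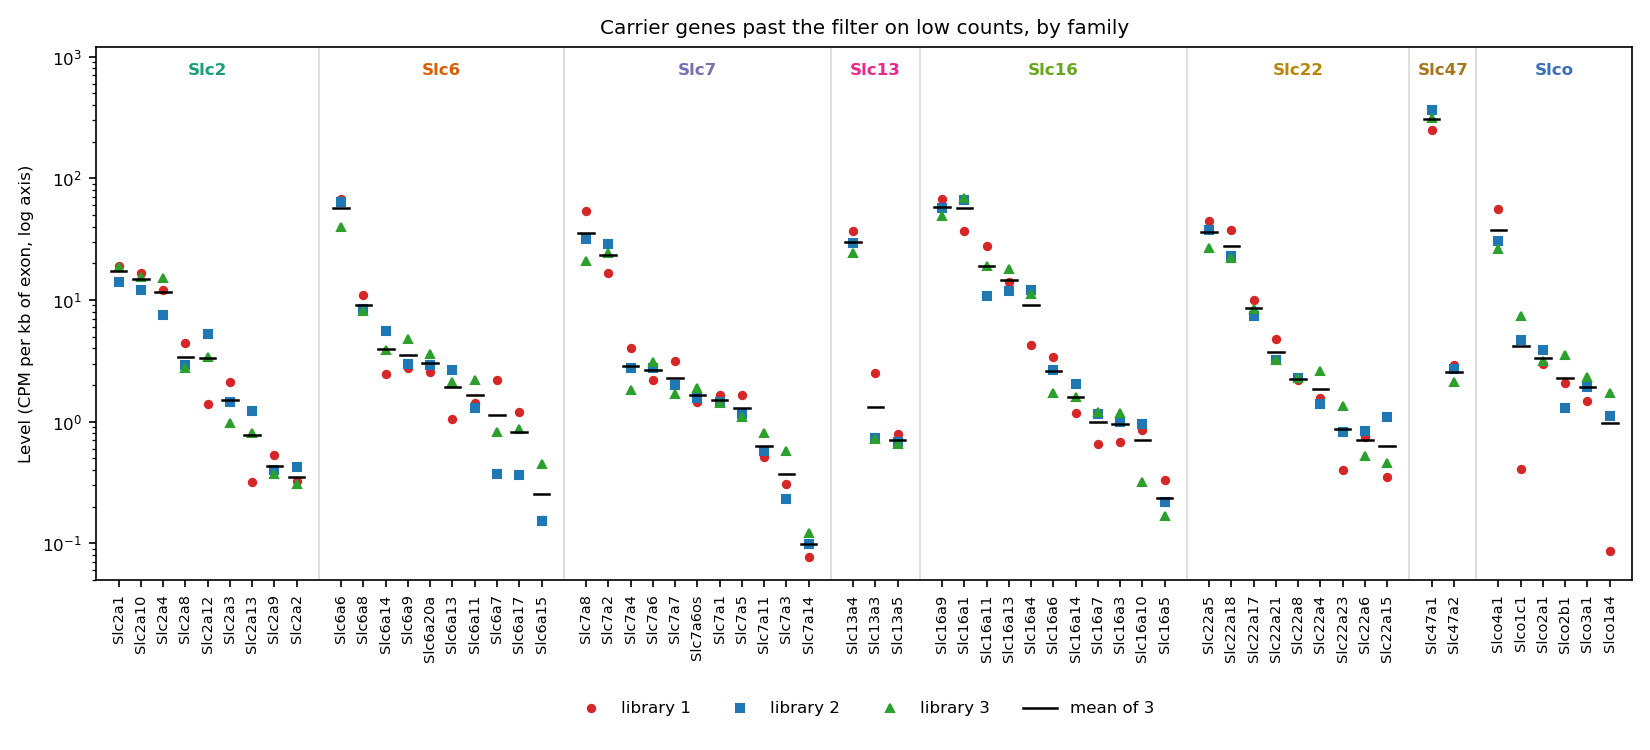
Length-normalized level (CPM per kb of exon, log axis) of 61 carriers past the filter, by family. Symbols are the 3 libraries and black bars are means. Slc47a1 lies above all others at a mean of 309 CPM per kb, and the points of library 1 for Slco1c1 and Slco1a4 lie far below those of libraries 2 and 3.

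Slc47a1, a proton-coupled exporter of organic cations best known from kidney and liver, had the highest level of all members. It was at 249, 366 and 311 CPM per kb in libraries 1, 2 and 3 (309 ± 58.5, SD, n = 3), above 98.8% of the 14409 genes past the filter. The gene accounted for 35.4% ± 5.998 of the length-normalized total of the carriers. Slc47a2, the only other member of the family, was at 2.90, 2.69 and 2.10 CPM per kb (2.57 ± 0.414). Both genes lie on the minus strand of chromosome 11, Slc47a1 at 61343401 to 61378345 and Slc47a2 at 61301631 to 61342860, in GENCODE M21 on GRCm38. The ratio of Slc47a1 to Slc47a2 was 86.0, 136 and 148 in libraries 1, 2 and 3, so these neighbouring relatives were separated in every library.

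The 10 members with the highest levels made up 76.9% ± 3.01 of the carriers' length-normalized total. After Slc47a1 they were Slc16a9, Slc16a1, Slc6a6, Slco4a1, Slc22a5, Slc7a8, Slc13a4, Slc22a18 and Slc7a2. Over all 63 members, the intervals of mean ± 1 SD overlapped in 60 of 62 pairs of neighbours in rank. The exceptions were the step from Slc47a1 to Slc16a9 at the top and that from Slc16a5 to Slc7a14 at the bottom, so the order between them was not resolved step by step.

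**Figure D2:**
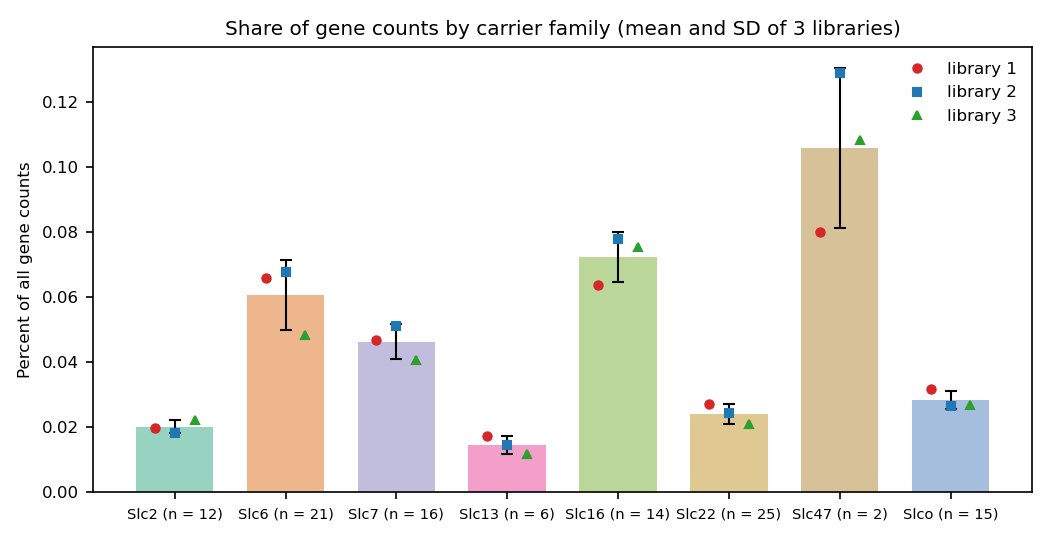
Percent of all gene counts that fell on each carrier family. Bars are means of 3 libraries with SD, and symbols are the libraries. The 2 members of Slc47 took 0.106% ± 0.0246, more than the 14 members of Slc16 at 0.0724% ± 0.00762.

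Glucose and related sugars enter cells through the Slc2 (GLUT) family. Slc2a1, the carrier of barrier endothelium and many other cells (chromosome 4, 119108711 to 119137983), was at 18.8, 14.0 and 18.7 CPM per kb in libraries 1, 2 and 3. Slc2a10 was at 16.6, 12.2 and 15.6 CPM per kb, and the insulin-responsive Slc2a4 at 12.0, 7.497 and 15.2 CPM per kb. Although Slc2a1 was above Slc2a10, and Slc2a10 above Slc2a4, in 3 of 3 libraries, their SD intervals overlapped. These 3 genes stood apart from the next, Slc2a8, at 3.39 ± 0.928 CPM per kb. Slc2a3, the carrier typical of neurons, was at 1.52 ± 0.576 CPM per kb, and Slc2a1 exceeded it 12.6 ± 5.77 times. Slc2a12 was at 1.41, 5.26 and 3.39 CPM per kb, and the proton-coupled myo-inositol carrier Slc2a13 at 0.320, 1.221 and 0.806 CPM per kb, both lowest in library 1. The urate carrier Slc2a9 (0.432 ± 0.0833 CPM per kb) and the liver and beta cell carrier Slc2a2 (0.353 ± 0.0639 CPM per kb) were near the lower end. The fructose carrier Slc2a5 had 0, 10 and 65 counts in libraries 1, 2 and 3, Slc2a6 had 18, 36 and 3 counts, and Slc2a7 had none.

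In the sodium-coupled Slc6 family, the carriers of taurine and creatine had the highest levels. The taurine carrier Slc6a6 (chromosome 6, 91684053 to 91759066) was at 67.8, 64.0 and 39.7 CPM per kb in libraries 1, 2 and 3, and made up 67.6% ± 8.10 of the family's length-normalized total. The creatine carrier Slc6a8 followed at 10.97, 8.38 and 8.07 CPM per kb, below Slc6a6 by more than the spread. Slc6a14, which carries a broad range of amino acids, was at 2.47, 5.54 and 3.89 CPM per kb. Its SD interval overlapped that of the glycine carrier Slc6a9 (3.52 ± 1.13 CPM per kb). Slc6a9 in turn overlapped the imino acid carrier Slc6a20a (3.02 ± 0.518 CPM per kb), though it was the higher of the pair in 3 of 3 libraries.

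The GABA carriers were low in comparison. Slc6a13, described in meninges as well as liver and kidney, was at 1.04, 2.65 and 2.10 CPM per kb, and Slc6a11 at 1.64 ± 0.496 CPM per kb. The betaine and GABA carrier Slc6a12, which lies beside Slc6a13 on chromosome 6, had 0, 0 and 30 counts. The proline carrier Slc6a7 was at 2.20, 0.371 and 0.829 CPM per kb, highest in library 1 and with the widest range of the family among members past the filter (1.91 on the log2(CPM + 1) scale). Slc6a17 (0.813 ± 0.424 CPM per kb) and Slc6a15 (0.252 ± 0.170 CPM per kb), carriers of neutral amino acids in neurons, completed the members past the filter. Carriers that define monoaminergic neurons did not pass the filter. The dopamine carrier Slc6a3 had no count and the serotonin carrier Slc6a4 had 12, 6 and 9 counts. The noradrenaline carrier Slc6a2 had 0, 45 and 28, so it was low but above the floor in libraries 2 and 3. Slc6a19, Slc6a20b, Slc6a5 and Slc6a16 had at most 8 counts in any library, and Slc6a18 and Slc6a19os had none.

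In the Slc7 family of amino acid carriers, a pair of genes had the highest levels. Slc7a8 (LAT2, a light chain that exchanges neutral amino acids; chromosome 14, 54722209 to 54781946) was at 53.6, 31.8 and 20.9 CPM per kb in libraries 1, 2 and 3. The arginine and lysine carrier Slc7a2 was at 16.7, 28.9 and 24.3 CPM per kb. Their order was not settled: Slc7a8 was higher in libraries 1 and 2 and Slc7a2 in library 3, and the leader was Slc7a2 both without a length correction and without library 1. Each exceeded its close relative. The ratio of Slc7a8 to Slc7a5 (LAT1, the related carrier of brain capillaries) was 32.2, 27.4 and 19.3 in the 3 libraries, and that of Slc7a2 to Slc7a1 was 10.2, 19.9 and 16.9.

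The other Slc7 members were low. Slc7a4, a relative with no settled substrate, was at 4.04, 2.73 and 1.81 CPM per kb. The exchangers of cationic for neutral amino acids Slc7a6 and Slc7a7 were at 2.68 ± 0.455 and 2.28 ± 0.7502 CPM per kb. Slc7a1 was at 1.51 ± 0.114, Slc7a5 at 1.30 ± 0.315 and the cystine carrier Slc7a11 at 0.627 ± 0.154 CPM per kb. Below them lay Slc7a3 (0.370 ± 0.178 CPM per kb) and Slc7a14 (0.0993 ± 0.0223 CPM per kb). Slc7a6os, which is no carrier, was at 1.65 ± 0.228 CPM per kb. Slc7a10 had 6, 69 and 56 counts, and Slc7a9 and Slc7a13 at most 10 in any library. Slc7a12 and Slc7a15 had none.

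Of the Slc13 family of sodium-coupled anion carriers, the highest level was that of Slc13a4, a sulphate carrier (chromosome 6, 35267957 to 35308131). It was at 36.8, 29.3 and 24.1 CPM per kb in libraries 1, 2 and 3, and made up 93.9% ± 1.92 of the family's length-normalized total. Slc13a4 is also known from choroid plexus epithelium. It was highest in library 1, the library in which the choroid plexus markers were lowest, and the part of those cells in its level was not tested. The dicarboxylate carrier Slc13a3 was at 2.52, 0.735 and 0.725 CPM per kb, highest in library 1, and the citrate carrier Slc13a5 at 0.787, 0.673 and 0.656 CPM per kb. Slc13a1, Slc13a2 and Slc13a2os had no count.

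Monocarboxylate carriers of the Slc16 family were widely detected, with at least 1 count for each of the 14 members. Slc16a9, described as a carnitine carrier (chromosome 10, 70245100 to 70285968), was at 68.1, 57.1 and 48.8 CPM per kb in libraries 1, 2 and 3. The lactate and pyruvate carrier Slc16a1 (MCT1; chromosome 3, 104638668 to 104658462) was at 37.2, 66.5 and 68.3 CPM per kb. Their SD intervals overlapped, and Slc16a1 led with plain library totals, without a length correction or without library 1. The other lactate carriers were far lower: Slc16a1 exceeded Slc16a3 (MCT4) by 55.1, 67.5 and 57.8 times and Slc16a7 (MCT2) by 56.6, 58.2 and 56.8 times in the 3 libraries.

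Several Slc16 members with less settled substrates were at intermediate levels. Slc16a11 was at 27.7, 10.8 and 18.9 CPM per kb and Slc16a13, its neighbour on chromosome 11, at 14.6 ± 3.13 CPM per kb. Slc16a4 was at 4.23, 12.0 and 11.2 CPM per kb, lowest in library 1. Slc16a6 (2.59 ± 0.838), Slc16a14 (1.60 ± 0.435), Slc16a7 (1.001 ± 0.299), Slc16a3 (0.947 ± 0.256), the aromatic amino acid carrier Slc16a10 (0.709 ± 0.341) and Slc16a5 (0.238 ± 0.0823 CPM per kb) followed. Slc16a12 had 8, 34 and 49 counts. Slc16a8 (MCT3), a lactate carrier of choroid plexus and retinal pigment epithelium, had 1, 15 and 19 counts.

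In the Slc22 family of organic ion carriers, the leading gene carries carnitine, and the classical anion and cation carriers were low or below the filter. The carnitine carrier Slc22a5 (OCTN2; chromosome 11, 53864542 to 53891660) was at 44.4, 37.5 and 26.8 CPM per kb in libraries 1, 2 and 3. Its neighbours Slc22a21 and Slc22a4 were at 3.73 ± 0.900 and 1.85 ± 0.665 CPM per kb. Slc22a5 exceeded Slc22a21 by 9.32, 11.6 and 8.40 times in the 3 libraries. Slc22a18, a proton-coupled carrier of an imprinted gene cluster, was at 37.5, 22.8 and 22.2 CPM per kb, and overlapped Slc22a5 in its SD interval. Slc22a17, a receptor for lipocalin, was at 9.94, 7.34 and 8.44 CPM per kb.

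The organic anion carriers used by kidney and choroid plexus were low but present in each library. Slc22a8 (OAT3) was at 2.20, 2.28 and 2.29 CPM per kb, with the narrowest range of any carrier past the filter (0.05 on the log2(CPM + 1) scale). Slc22a6 (OAT1), the adjacent gene of the block on chromosome 19, was at 0.748, 0.844 and 0.523 CPM per kb. The orphan carriers Slc22a23 and Slc22a15 were at 0.403, 0.826 and 1.35 CPM per kb and at 0.348, 1.10 and 0.460 CPM per kb. The organic cation carriers Slc22a2, with 7, 15 and 44 counts, and Slc22a3, with 5, 0 and 6 counts, did not pass the filter. Of the 8 members in the block on chromosome 19 (7673061 to 8628299), Slc22a6 and Slc22a8 passed, while Slc22a19, Slc22a26, Slc22a27, Slc22a28, Slc22a29 and Slc22a30 had no count. Slc22a7, Slc22a16 and Slc22a22 had none either. Slc22a12, Slc22a13, Slc22a14 and Slc22a20 had at most 13 counts in any library.

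The Slco genes encode organic anion transporting polypeptides, which carry steroid conjugates, thyroid hormones and prostaglandins without sodium. Slco4a1 (chromosome 2, 180456245 to 180474867) led with 55.8, 30.5 and 26.2 CPM per kb in libraries 1, 2 and 3, highest in library 1. The prostaglandin carrier Slco2a1 was at 2.995, 3.91 and 3.14 CPM per kb. Slco2b1 was at 2.30 ± 1.11 and Slco3a1 at 1.91 ± 0.422 CPM per kb. Slco5a1 had 7, 59 and 50 counts, Slco1a5 had 2, 10 and 42, and Slco1a6 had 2, 0 and 9. Slco1a1, Slco1b2, Slco4c1, Slco6b1, Slco6c1 and Slco6d1 had no count.

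Variation between libraries was tested over all 14409 genes with edgeR's goodness-of-fit test, which asks whether the counts of a gene differ between libraries by more than the spread of genes of similar abundance. At an adjusted p threshold of 0.05 (Benjamini-Hochberg) 63 genes were called, 0.437% of those tested, and 1 of the 63 carriers was among them, a number too small to compare with that share. It was Slco1c1, a thyroxine carrier of brain capillaries and choroid plexus. Slco1c1 was at 0.409, 4.64 and 7.39 CPM per kb in libraries 1, 2 and 3, or 42, 716 and 994 counts (edgeR adjusted p = 0.00297). Library 1 was far below the others, between which no difference was called when library 1 was left out (edgeR adjusted p = 0.9996). The call was lost without library 1, and it was also lost without library 3 (edgeR adjusted p = 0.227), whereas it was kept without library 2 (edgeR adjusted p = 0.00874).

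Slco1a4, an organic anion carrier of brain capillaries on the same chromosome 6 block (141524368 to 142322981), was at 0.0866, 1.11 and 1.71 CPM per kb, or 11, 212 and 284 counts. It also lay lowest in library 1, and just missed the threshold (edgeR adjusted p = 0.0538). With plain library totals it passed (edgeR adjusted p = 0.0480), as it did at a common dispersion (0.00801). The ratio of Slco1c1 to Slco1a4 was 4.72, 4.18 and 4.33 over libraries whose levels differed more than 10-fold. In library 1 it rests on 42 and 11 counts and is imprecise. Removal of the trends with GC content and exon length left both genes low in library 1, with log2 ratios to the mean of the others of -2.86 for Slco1c1 and -2.14 for Slco1a4, against -3.37 and -2.69 before. With those trends removed 0.680% of all genes and 1 of 63 carriers, Slco1c1, were called, and Slco1a4 missed the threshold (edgeR adjusted p = 0.0781).

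The 250 bases upstream of the annotated starts of Slco1c1 and Slco1a4, which lie in 1 chromosomal block, are shown. Those of Slco1a5, a choroid plexus carrier of the same block, are shown at the start whose window held part of the same letters. Whether genes of the block are regulated together was not tested. Genes elsewhere, such as the choroid plexus markers Ttr and Enpp2, were also lowest in library 1. RefSeq gave such a window for 84 of the 111 members. Sequences are from its table on GRCm38.p6, 5′ to 3′ on the strand of the gene, at chr6:141524104-141524353 (plus strand) for Slco1c1, chr6:141856221-141856470 (minus strand) for Slco1a4 and chr6:142278875-142279124 (minus strand) for Slco1a5. Capitals mark the longest run of letters shared by Slco1c1 and Slco1a4, and the part of it found for Slco1a5.
Slco1c1: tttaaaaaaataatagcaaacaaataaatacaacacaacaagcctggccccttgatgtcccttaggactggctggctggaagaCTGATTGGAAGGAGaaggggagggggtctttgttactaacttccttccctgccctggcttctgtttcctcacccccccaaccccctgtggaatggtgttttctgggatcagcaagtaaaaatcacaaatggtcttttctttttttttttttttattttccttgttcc
Slco1a4: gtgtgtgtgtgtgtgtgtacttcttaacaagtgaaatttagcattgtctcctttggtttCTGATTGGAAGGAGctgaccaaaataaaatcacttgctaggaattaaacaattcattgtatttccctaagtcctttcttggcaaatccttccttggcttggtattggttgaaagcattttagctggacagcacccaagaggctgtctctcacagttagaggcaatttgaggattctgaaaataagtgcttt
Slco1a5: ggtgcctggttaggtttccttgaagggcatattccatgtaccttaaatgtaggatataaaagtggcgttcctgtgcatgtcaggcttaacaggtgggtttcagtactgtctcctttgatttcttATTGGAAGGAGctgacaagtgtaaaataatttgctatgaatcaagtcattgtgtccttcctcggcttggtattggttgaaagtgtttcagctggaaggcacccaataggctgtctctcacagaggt

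The shared run, CTGATTGGAAGGAG, has 14 letters and begins 167 bases before the start of Slco1c1 and 191 bases before that of Slco1a4. Searched on both strands, it was found in 2 of 32851 upstream windows of the same length, those of these 2 genes. The shorter run ATTGGAAGGAG, 11 letters inside it, was found in 13 windows (0.0396%), and the other start of Slco1a5 did not hold it. Both runs contain ATTGG, the reverse complement of a CCAAT box, a motif that 33.8% of all windows held on either strand. The genes are related by descent and these letters were searched for after the values had been seen. A match describes the sequence and is not a site of regulation.

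**Figure D3:**
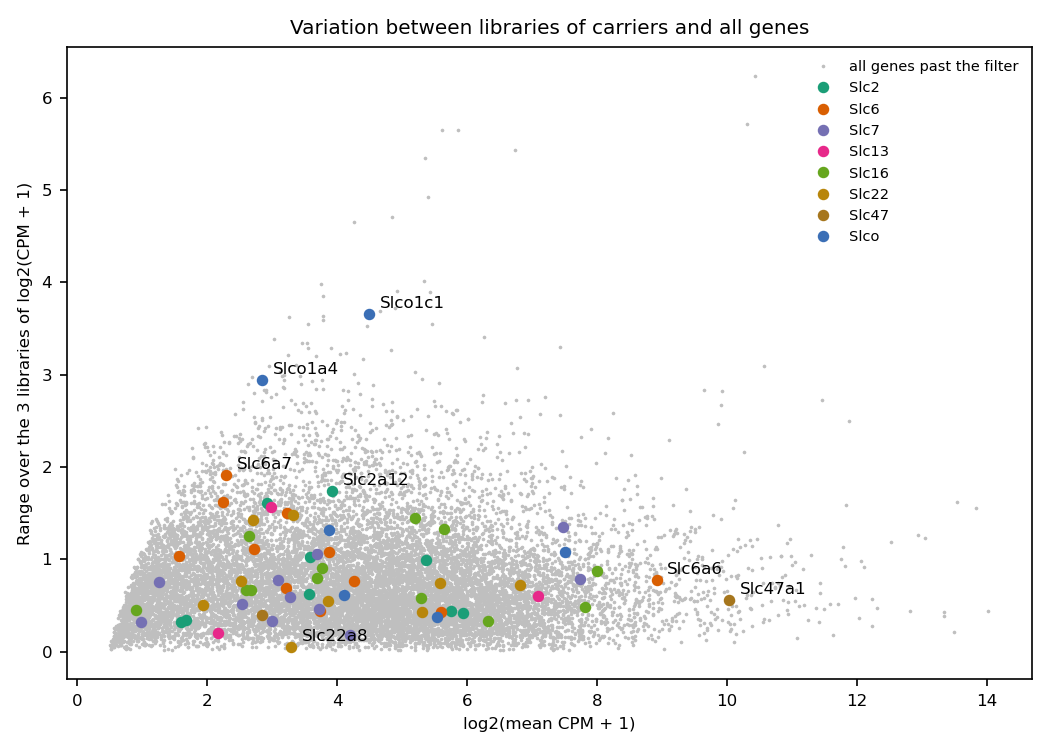
Range over the 3 libraries of log2(CPM + 1) against log2(mean CPM + 1) for all 14409 genes past the filter (grey) and the 63 carriers (coloured by family). Slco1c1 and Slco1a4 have ranges of 3.66 and 2.94, and the other carriers lie below 2.

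Other cell types were set beside these carriers. In libraries 1, 2 and 3 the choroid plexus markers summed to 93.1, 3190.2 and 4873 CPM, and 5 of 5 (Ttr, Enpp2, Folr1, Kl and Clic6) were lowest in library 1, with none at 0. Macrophage markers, 5 of 5 lowest in library 1, and lymphocyte markers (2.68, 53.7 and 62.1 CPM; 4 of 5 lowest, Ms4a1 at 0 in library 1 and Cd3e at 0 in library 2) had the same order. The blood endothelial sum did not, and was highest in library 1 at 79.4 CPM, but its markers differed. Flt1 (2.93, 4.03 and 6.13 CPM) and Cldn5 (1.16, 2.22 and 3.20 CPM), 2 of 5, were lowest in library 1. Pecam1 and Egfl7 were lowest in library 2 and Cdh5 in library 3. Of the mural markers 2 of 5 were lowest in library 1, Rgs5 (69.2, 273 and 372 CPM) and Myh11 (329, 385 and 723 CPM). The counts of Slc16a8 (1, 15 and 19) and Slco1a5 (2, 10 and 42), both below the filter, also had the order of the choroid plexus markers. Slc13a4, known from the same epithelium, had the reverse order at 166, 133 and 109 CPM. The 5 carriers listed for choroid plexus, these among them, summed to 173, 156 and 126 CPM, highest in library 1. Most of that sum was Slc13a4, so it mainly repeats the order of that gene. Slc2a12, also on the list, was lowest in library 1 at 5.96, 22.3 and 14.4 CPM. Slc6a20b, with 6, 4 and 6 counts, was lowest in library 2. In a bulk library, fewer cells of a type and less RNA per cell cannot be told apart. The part of any cell type in the levels of these carriers was not tested.

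**Figure D4:**
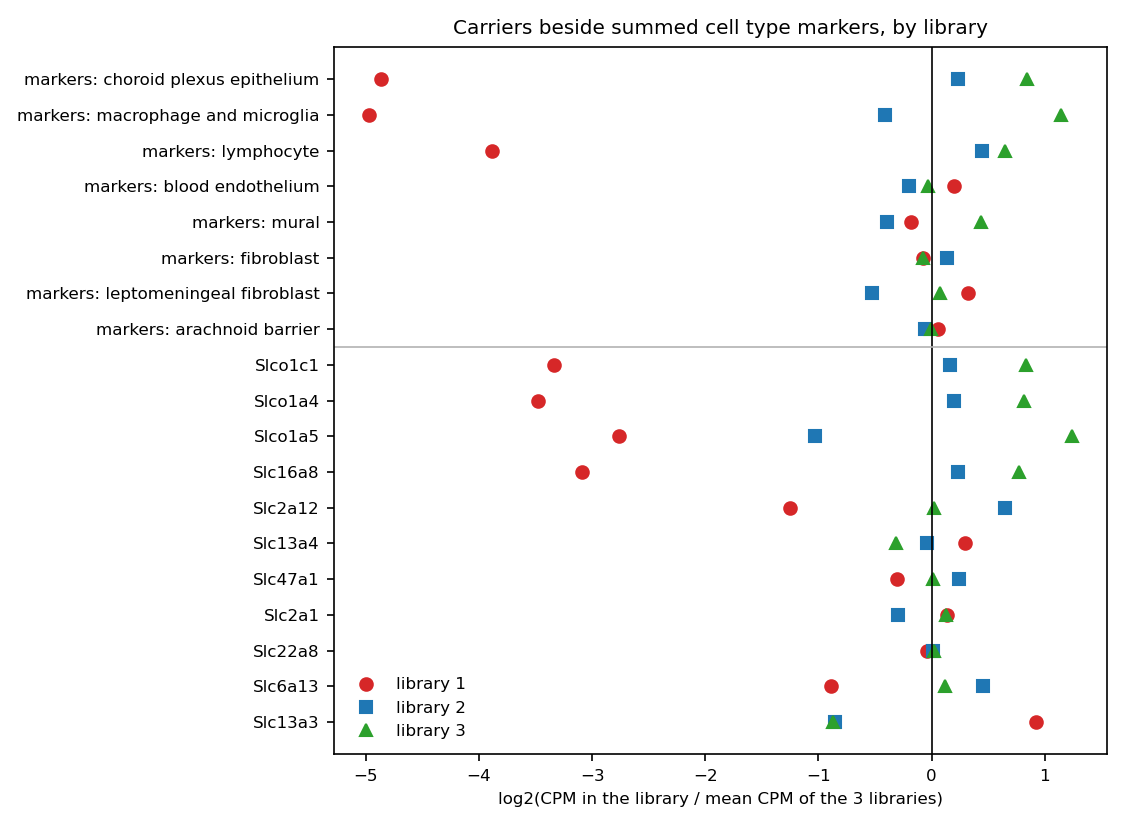
Log2 of the CPM in each library over the mean of the 3 libraries, for the sums of cell type markers (above the line) and for 11 carriers (below), chosen after their values were seen. Markers within a sum can differ in order, as those of arachnoid barrier and leptomeningeal fibroblasts did. Slco1c1, Slco1a4, Slco1a5 and Slc16a8 lie far to the left in library 1, as the choroid plexus, macrophage and lymphocyte markers do, while Slc13a4, Slc47a1, Slc2a1 and Slc22a8 lie close to their means in every library.

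As a group the carriers varied about as much as other genes. The median range of the 63 members over libraries was 0.74 on the log2(CPM + 1) scale, against 0.67 for all genes past the filter, and 33.3% of members against 26.1% of all genes had a range of at least 1. Library 1 was more than 2-fold below the mean of the others for 7 of 63 members, where 11.8% of all genes were so (11.1% of members). It was more than 2-fold above for 3 of 63, where 3.61% of all genes were. The 7 low members were Slco1c1, Slco1a4, Slc2a12, Slc16a4, Slc2a13, Slc22a23 and Slc22a15, and the 3 high ones were Slc13a3, Slc6a7 and Slc7a8. With GC content and length trends removed, 5 of 63 members were that far below (4.59% of all genes) and 2 of 63 that far above (2.39% of all genes). The filter leaves out members and other genes nearly absent from library 1, such as Slc7a10 (6, 69 and 56 counts) and Slc6a2 (0, 45 and 28 counts). Without library 1, 69 members and 15460 genes passed it. Library 1 was the lowest in 24 members (38.1%), library 2 in 14 (22.2%) and library 3 in 25 (39.7%). Over all genes these shares were 40.4%, 32.3% and 27.2%, so the share of library 1 was similar. Unadjusted p-values fell under 0.05 for 3 of 63 carriers, Slco1c1, Slco1a4 and Slc6a7, and for 1015 of all 14409 genes.

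Genes that work with these carriers were listed by role. Of 16 symbols of subunits, chaperones, enzymes and regulators, 15 were in the table and 10 passed the filter. Of 26 carriers and pumps of other families, 22 passed. None of these 32 genes was called variable by edgeR's test at an adjusted p of 0.05. Of all genes 0.437% were called, so 32 are too few to compare. Unadjusted p-values fell under 0.05 for 1 partner and 3 other carriers, as for 1015 of all 14409 genes. Slc3a2, the heavy chain that Slc7a8 and Slc7a5 need at the cell surface, was at 63.1, 41.7 and 37.3 CPM per kb, highest in library 1 as Slc7a8 was. Slc3a1, the other heavy chain, had at most 5 counts. Basigin (Bsg), the chaperone of Slc16a1, was at 429, 458 and 466 CPM per kb, and embigin (Emb), that of Slc16a7, at 116, 225 and 269 CPM per kb. Lactate dehydrogenases were at 376 ± 140 CPM per kb for Ldha and 128 ± 21.7 for Ldhb. Hexokinase 1 (Hk1) was at 16.99 ± 0.707 CPM per kb, above Hk2 at 0.846 ± 0.307. Hnf4a, a regulator of organic anion carriers in kidney and liver, had 0, 8 and 4 counts.

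Carriers of other families gave levels to set beside these. The neutral amino acid carrier Slc38a2 was at 313 ± 83.0 CPM per kb, close to Slc47a1. The vitamin carrier Slc5a6 was at 241 ± 73.6 and the ascorbate carrier Slc23a2 at 222 ± 55.4 CPM per kb, each with an SD interval that overlapped that of Slc47a1. The nucleoside carrier Slc29a1 was at 81.0 ± 20.5 CPM per kb. The efflux pumps Abcg2 and Abcb1a, typical of barriers, were at 32.5 ± 10.1 and 15.9 ± 2.61 CPM per kb. The sodium-coupled glucose carrier Slc5a1, the monocarboxylate carrier Slc5a8 and the bile acid subunit Slc51a had no count.

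Some of these values are less certain than their spread shows. Of the 63 carriers past the filter, 15 share exon bases with a gene on the opposite strand in GENCODE M21, among them Slc6a6, Slc16a9, Slc2a1, Slc7a2, Slc6a9 and Slc16a6, and whether the counting used strand is not given in the sources used here. Close relatives such as Slc6a20a and Slc6a20b, or Slco1a4, Slco1a5 and Slco1a6, can also lose or share reads.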

How the data were processed

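Raw counts per gene, whole numbers with no normalization, were used as deposited by the authors for 3 libraries of 1 group. The submitters' processing notes name HTSeq 0.5.3, DESeq2 1.22.1 and the build mm10, without their roles; the aligner, annotation release and strand setting are not given in the sources used here. The 5 counter rows for reads given to no gene (45.6%, 39.1% and 39.6% of the totals of libraries 1, 2 and 3) were left out, and 0 value columns lacked a sample. Exon lengths, GC content and coordinates came from GENCODE M21 (GRCm38), matched by gene identifier for all 111 members.

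TMM factors from edgeR 4.0.16 in R 4.3.3 scaled the libraries, and filterByExpr (minimum count 10) set which genes were tested. Levels are CPM per kb of merged exons, and ranges and ratios between libraries use log2(CPM + 1), which understates changes of low genes. With 1 group the quasi-likelihood test has no contrast. Variation was therefore tested by edgeR's goodness of fit at the trended dispersion, with Benjamini-Hochberg adjustment over 14409 genes. On simulated data for that number of genes, it recovered 110 of 200 genes changed 8-fold in 1 library, with 1 false call. Counting errors, floors and tests treat PCR reads as independent molecules, which they may not be. GC content and length trends were removed by loess (span 0.3).

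Every member past the filter is named with its level, except for some items that are not reported here. The 3 highest and the 2 most variable of each family, and every one called variable, are given in each library, and members without counts are named. Members and gene lists were chosen with earlier results of these data known, so no list is independent evidence. DESeq2 1.42.0 size factors, other filters, dispersions and lengths, and leaving out each library, were tried as alternatives.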

Additional observations from a re-analysis of the deposited data

Results flagged for a closer look

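A row outside the set examined held counts above what a count of 0 allows: Slc2a4rg-ps, left out by its -ps symbol, had 41, 82 and 73 counts in libraries 1, 2 and 3. The other row left out in this way, Slc22a13b-ps, had 2, 1 and 1. Groups of 3 libraries are too small for a test of outlying samples.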

How the results depend on the processing

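No paired analysis was possible because all 3 libraries belong to a single group. The number of carriers called variable (1) was 2 with plain library totals (73 of all genes called) and 2 at a common dispersion (85 of all genes), with Slco1a4 added in both. As alternatives chosen after seeing the data, it was 2 (Slco1c1 and Slc6a12; 1.10% of all genes called) with a filter on a mean of 10 counts, and 3 (Slc2a5 added; 226 of 16392 genes) when GC content and length trends were removed as well. When each replicate was left out it ranged from 0 to 1. Of all genes, 27 of 15460, 28 of 14610 and 12 of 14702 were called without libraries 1, 2 and 3. Unadjusted p-values (edgeR) fell under 0.05 for 5 of 69, 3 of 63 and 4 of 64 carriers. They did so for 867 of 15460, 786 of 14610 and 860 of 14702 genes. DESeq2 size factors, no filter on low counts, 10 counts in every library and the removal of trends each called 1 carrier, Slco1c1. In that order 62 of 14409, 134 of 25083, 62 of 14410 and 98 of 14409 genes were called. The edgeR adjusted p of Slco1c1 ranged from 0.000145 to 0.00600 with all libraries. Division of counts by exon length changed the family shares to 0.0165% for Slc2, 0.0257% for Slc6, 0.0224% for Slc7, 0.00978% for Slc13, 0.0569% for Slc16 and 0.0154% for Slco. Without a length correction Slc2a1 made up 29.8% and Slc6a6 78.5% of their families. Over the carriers, library 1 had a median log2 difference from the mean of libraries 2 and 3 of -0.05, and of -0.16 with plain totals, which moved the median of all genes from -0.02 to -0.13. The leading member of Slc7 became Slc7a2 without a length correction or without library 1, and that of Slc16 became Slc16a1 under these settings and with plain totals.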
